A study of Mus musculus with 8 samples.

Results

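The collagen chain genes were taken as all protein-coding mouse genes whose symbol is Col, a number, the letter a and a number. In the GRCm38 annotation 44 genes met this rule, of 21974 protein-coding genes and of 55487 gene identifiers in the count table, and together they covered 27 collagen types. By the structure of the proteins, 11 encode chains of fibrillar collagens, 8 encode basement membrane chains (type IV and the multiplexins XV and XVIII), and 25 encode other chains. A count in at least 1 library was present for 40 of them, and 35 passed the filter on low counts and were tested among 17636 genes.

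Hearts of WT mice and of mice with a global knockout of Set7, a lysine methyltransferase whose gene is Setd7, were profiled by RNA sequencing after saline or isoproterenol, a beta-adrenergic agonist. The dose was 60 mg/kg, given subcutaneously over 14 days, and the knockout animals came from crosses between heterozygotes. There were 2 libraries in each of the 4 groups, named WT saline, WT isoproterenol, Set7KO saline and Set7KO isoproterenol. Age, sex, strain, the deleted part of the gene and the region of the heart are not given in the sources used, nor whether the libraries of a group are from separate animals, so the tests measure the spread between these libraries, which may be technical.

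Each collagen molecule is made of polypeptide chains wound into a helix, in which every chain repeats glycine followed by a pair of other residues, often proline and hydroxyproline. Types I and III form the fibres that give heart muscle its tensile strength and that accumulate in fibrosis, and cardiac fibroblasts are their main source. Type IV chains instead build the sheet-like network of basement membranes around capillaries and cardiomyocytes, and fibril-associated chains decorate the surface of fibrils.

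Depth was 27847069 to 51705705 counts per library. Setd7 stood at 43.7 and 43.0 CPM (counts scaled to the normalised size of each library) in WT saline, 58.1 and 72.6 in WT isoproterenol, 4.45 and 5.70 in Set7KO saline, and 3.79 and 3.92 in Set7KO isoproterenol, so all libraries matched their genotype label. Cardiomyocyte markers summed to 65200 to 94100 CPM in every library, which matches the tissue label. Of 6 cartilage markers, Hapln1, Matn1 and Matn3 had no count in any library, and the list summed to 1.98 to 6.32 CPM. Among them Acan, the core protein of aggrecan, stood at 0.0994 to 0.455 CPM in saline and 1.23 to 4.67 in isoproterenol without overlap (averaged log2 fold change 3.36 ± 0.47, edgeR adjusted p = 0.0769). Over the 3 cartilage markers tested, the median averaged log2 fold change was -0.3. The part of Acan in the collagen values was not tested. Of 6 epithelial markers, Epcam and Krt5 had no count, and the list summed to 0.146 to 1.07 CPM. The libraries of Set7KO saline differed most from each other (r = 0.938 across genes on the log2 CPM scale, against 0.972 to 0.988 in the other groups). Levels followed the GC content of genes unequally across libraries. Each gene averaging 1 CPM or more was set against its own mean over the 8 libraries on the log2 scale. The median of these deviations for the 20% of genes with the highest GC content was then compared with that for the 20% with the lowest. It was higher by 0.52 and 0.76 log2 units in WT saline, while the same difference was -0.98 and -0.69 in WT isoproterenol. In Set7KO saline it was 0.36 and -0.82, and in Set7KO isoproterenol 0.15 and 0.62. It bears on collagens because their exons had a median GC content of 56.1%, against 50.2% over all genes tested, and 19 of the 35 lay among the 20% of genes with the highest. In WT this trend went with the treatment, and after isoproterenol it went with the genotype. In both contrasts a bias of the libraries and a change in expression cannot be told apart. Offsets that remove the trends with GC and length from each library were therefore fitted as an alternative, and their values are given where they change the sign of a named difference or the separation of its groups.

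The helix can be read in the exons of these genes, and the classes differ in how it is cut into exons. Coding exons are shown for the chains on which the results turn, with the glycine codons of the repeat in capitals (GRCm38, 5' to 3' on the coding strand, GENCODE M21). In fibrillar genes the unit is an exon of 54 bases, which carries 6 glycine codons, each at the start of a 9-base unit. The exon of Col1a1 lies at chr11:94939904-94939957 (+ strand), that of Col1a2 at chr6:4515481-4515534 (+ strand) and that of Col3a1 at chr1:45325360-45325413 (+ strand). For the type IV chains and the fibril-associated chains, the exon of 40 to 130 bases with the most glycine codons in register is shown. It lies at chr8:11217434-11217560 (- strand) in Col4a1, at chr8:11401148-11401264 (+ strand) in Col4a2, at chr15:55471621-55471716 (+ strand) in Col14a1 and at chr15:71890488-71890592 (- strand) in Col22a1.
Col1a1: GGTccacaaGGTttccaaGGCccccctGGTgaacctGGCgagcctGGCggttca
Col1a2: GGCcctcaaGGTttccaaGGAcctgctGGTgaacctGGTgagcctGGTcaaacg
Col3a1: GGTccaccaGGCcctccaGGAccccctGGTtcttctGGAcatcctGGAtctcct
Col4a1: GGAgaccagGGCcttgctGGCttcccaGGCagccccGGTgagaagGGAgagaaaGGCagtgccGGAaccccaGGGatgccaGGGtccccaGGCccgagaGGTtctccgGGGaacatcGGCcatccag
Col4a2: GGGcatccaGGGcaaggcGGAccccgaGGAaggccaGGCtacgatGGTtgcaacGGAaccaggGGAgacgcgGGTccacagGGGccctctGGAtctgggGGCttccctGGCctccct
Col14a1: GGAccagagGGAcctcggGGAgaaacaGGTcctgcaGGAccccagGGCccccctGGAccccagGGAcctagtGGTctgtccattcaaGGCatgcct
Col22a1: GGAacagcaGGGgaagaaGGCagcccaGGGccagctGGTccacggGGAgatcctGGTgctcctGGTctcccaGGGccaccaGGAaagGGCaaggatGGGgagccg
In the exon of Col14a1 the last glycine codons are separated by a stretch that breaks the 9-base register, and the exon of Col22a1 holds such a break near its end.

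Over the whole coding sequence, 305 of 649 fibrillar exons were exactly 54 bases long (47.0%). The share was 16 of 377 (4.2%) in the basement membrane genes and 148 of 978 (15.1%) in the others. The longest unbroken run of glycine triplets was 216 to 344 in the fibrillar chains, with 338 in Col1a1, 339 in Col1a2 and 344 in Col3a1. In the basement membrane chains it was 30 to 66, and the helix of Col4a1 was split into 22 runs of at least 5 triplets. Outside the fibrillar class Col22a1 had the highest share, with 28 of its 63 coding exons at 54 bases (44.4%). The type IX genes Col9a1, Col9a2 and Col9a3 were close to it, with 36.8% to 43.8%, and Col19a1 had 30.0%.

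**Figure D1:**
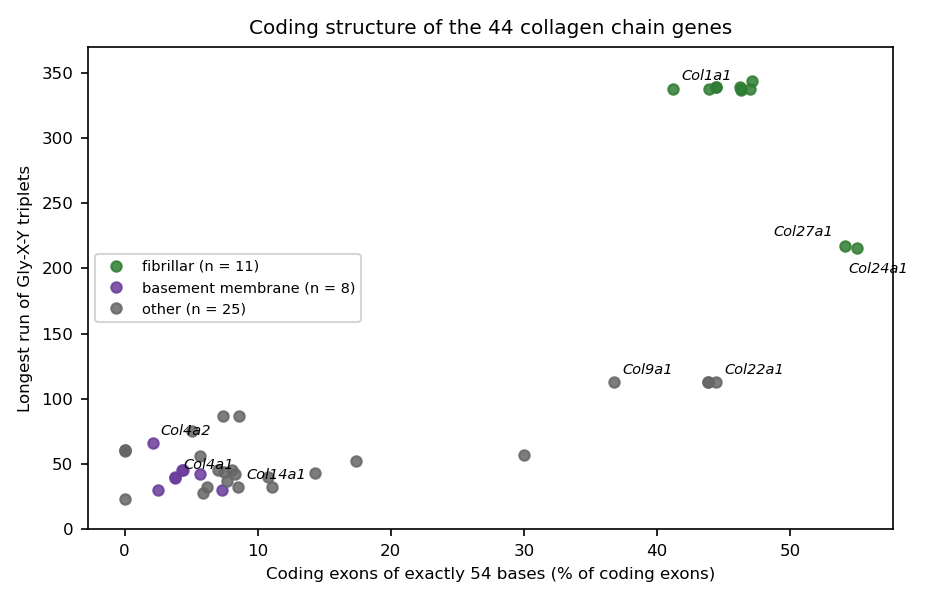
Each point is 1 of the 44 collagen chain genes; the horizontal axis is the percentage of its coding exons that are exactly 54 bases long and the vertical axis is its longest unbroken run of Gly-X-Y triplets. The 11 fibrillar genes lie at 41.2% or more with runs of 216 or more, and the 8 basement membrane genes lie at 7.3% or less with runs of at most 66.

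Several of these genes are neighbours. Col4a1 (chr8:11198423-11312826, - strand) and Col4a2 (chr8:11312805-11449287, + strand) are arranged head to head and overlap by 22 bases, Col4a4 and Col4a3 on chromosome 1 are head to head with 71 bases between them, and Col4a6 and Col4a5 on the X chromosome are head to head with 1308 bases between them. Col3a1 and Col5a2 on chromosome 1 end towards each other, 24614 bases apart. Not all neighbours shared a level: per kilobase of exons, Col4a3 was 0.195 to 0.336 times Col4a4 and Col4a5 was 17.7 to 94.2 times Col4a6 over the 8 libraries. Col4a1 and Col4a2, whose products combine in a single molecule, kept the narrowest ratio of the 10 chain pairs compared, 1.05 to 1.29.

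Basement membrane chains were the largest class of collagen message in these hearts, in every library and with either gene length used. Per kilobase of exons, Col4a1 and Col4a2 were the highest members, with means of 125 and 106 normalised CPM per kilobase over the 8 libraries. Next came Col6a1 at 34.4, Col3a1 at 33.5, Col1a1 at 30.3, Col15a1 at 21.5, Col6a2, and Col1a2 at 17.5, followed by Col5a1 at 11.7, Col4a5 at 7.14, Col5a3 at 5.58 and Col5a2 at 4.99. Neighbours in this order, such as Col6a1, Col3a1 and Col1a1, overlapped across libraries. These 12 genes held 92.7% to 96.2% of the summed level of all 44.

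By class, the basement membrane chains held 56.0% to 66.9% of the summed level per kilobase, the fibrillar chains 18.6% to 27.0% and the others 13.9% to 17.9%. With the length of 1 coding transcript per gene in place of all exons, the shares were 48.5% to 60.1%, 22.7% to 33.0% and 15.4% to 20.3%. The same 12 genes were highest, but Col3a1 then ranked 3 and Col1a2 ranked 5. The ratio of Col1a1 to Col1a2, chains that type I collagen joins in unequal number, was 1.38 to 2.13 per kilobase of exons but 0.656 to 1.02 per kilobase of transcript, so its level depends on the length used.

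**Figure D2:**
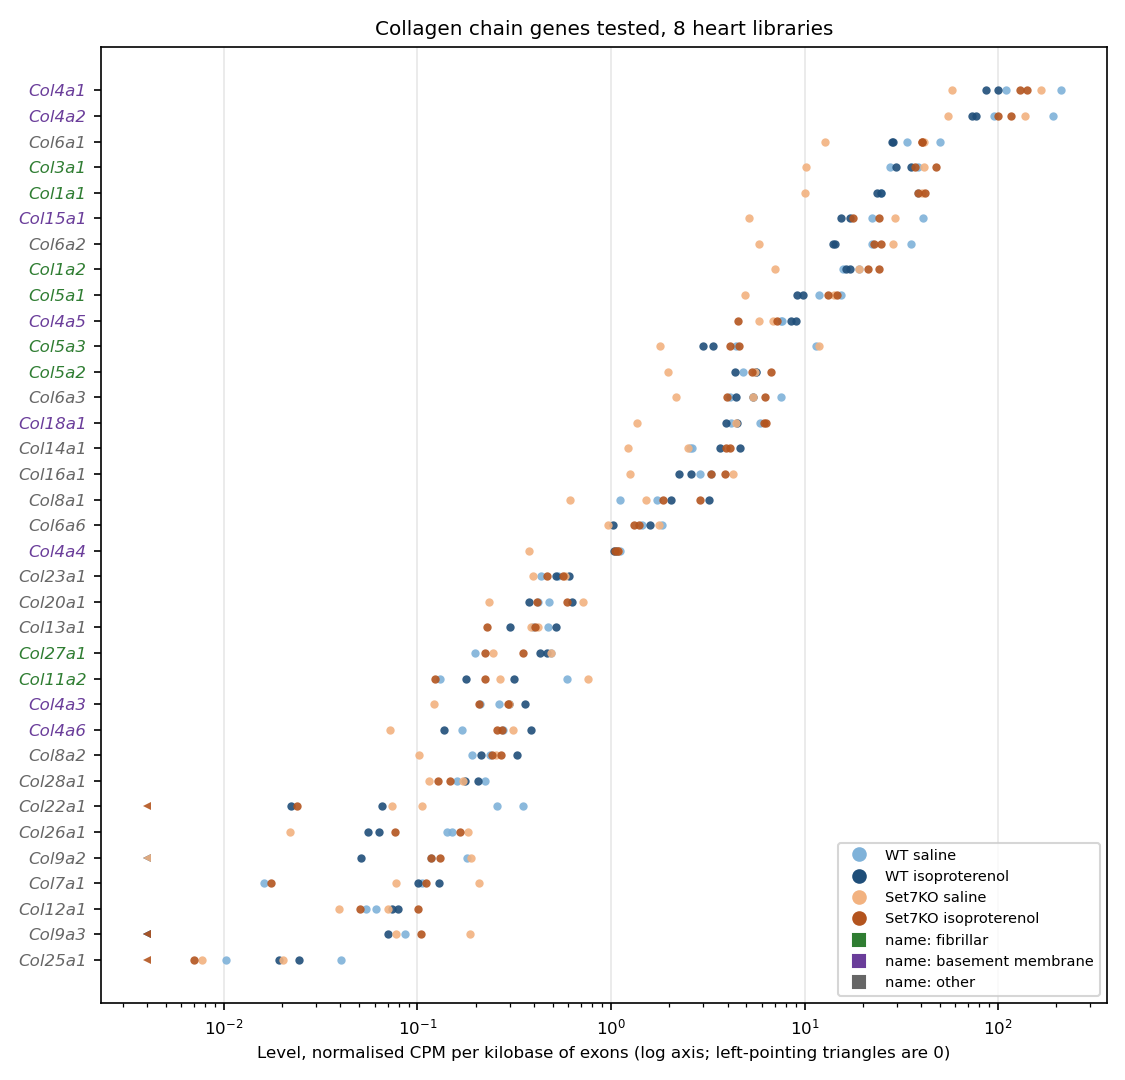
Level of each of the 35 tested collagen chain genes, in normalised CPM per kilobase of exons on a log axis, with a point for each of the 8 libraries, coloured by group; gene names are coloured by class. Col4a1 and Col4a2 are highest, with means of 125 and 106, and 1 library of Set7KO saline is lowest for most of the upper genes.

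The 9 chains that were not tested had few or no counts. Col6a4, Col9a1, Col10a1 and Col19a1 had none in any library, which allows up to 0.0598 to 0.112 CPM in a library at 3 counts (counting error only). Col2a1, the main fibrillar chain of cartilage, had 1 count in all, Col11a1 had 10, Col24a1 13, Col17a1 28 and Col6a5 29. Col11a1 stood at 0 to 0.151 CPM, and its highest library held 5 counts, above the floor of 3.

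No collagen chain gene passed the adjusted threshold of 0.05 in any of the 7 contrasts (edgeR quasi-likelihood test, Benjamini-Hochberg over 17636 genes). Few genes of any kind did: 9 for isoproterenol against saline averaged over genotypes, 0.0113% of genes higher and 0.0397% lower. In each contrast between Set7KO and WT 1 gene was called lower (0.00567%), and in the others 0 genes were. Limma-voom called 0 members in any contrast. DESeq2 called many more genes: in WT it called 15.4% of all genes but 1 member (2.86%), and averaged over genotypes 1.42% of all genes and 2 members (5.71%). At an unadjusted p under 0.05, 1 member was lower after isoproterenol in WT and 0 higher, against 13.3% and 18.5% of all genes. In Set7KO 3 were higher and 1 lower, against 3.65% and 6.01%, and averaged over genotypes 2 were higher and 1 lower, against 4.5% and 4.9%. Between Set7KO and WT, 1 was lower after saline and 0 higher (all genes 2.46% and 7.83%), and 0 were lower or higher after isoproterenol (12.7% and 7.22%). Averaged over treatments 2 were lower and 0 higher (0.578% and 0.987%), and the interaction gave 0 either way (12% higher and 18.6% lower). The fold changes below are therefore values with their standard errors, and what was measured is also how wide they are: the 95% interval for Col1a1 in WT ran from -1.61 to 0.83 on the log2 scale. Fewer cells of a type and less RNA per cell cannot be told apart in whole tissue.

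Isoproterenol did not raise the type I and III chains in WT beyond the spread between libraries. Col1a1, the alpha 1 chain of type I collagen, stood at 163 and 253 CPM in WT saline and at 155 and 163 in WT isoproterenol. Col1a2, its partner chain, stood at 197 and 238, then at 213 and 204, and Col3a1, the type III chain, at 270 and 378, then at 348 and 291. The groups overlapped for all 3 genes. Their log2 fold changes were -0.39 ± 0.53 (SE; adjusted p = 0.621), -0.06 ± 0.40 (adjusted p = 0.927) and -0.02 ± 0.53 (adjusted p = 0.981), by edgeR's quasi-likelihood test. With the offsets for GC and length these became 0.10, 0.15 and 0.04, so their sign is not fixed by these data.

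The minor fibrillar chains did not pass the test in WT either, and the WT groups were apart for Col5a1 and Col5a3. Col5a1 and Col5a2 encode type V chains, which are built into type I fibrils and limit their width. Col5a1 stood at 101 and 131 CPM in WT saline and 83.5 and 78.0 in WT isoproterenol, and Col5a2 at 46.0 and 53.7, then at 53.7 and 42.0. Col5a3, a further type V chain, stood at 30.2 and 77.7, then at 20.3 and 22.9. Both WT isoproterenol libraries were lower for Col5a1 and for Col5a3, and those of Col5a2 overlapped. With the offsets both of these separations were lost (Col5a1 at 87.4 and 111 against 101 and 82.3, Col5a3 at 24.4 and 64.5 against 25.5 and 25.7), while the isoproterenol libraries of Col5a2 were the lower ones. Col5a3 had a log2 fold change of -1.32 ± 0.75 (edgeR adjusted p = 0.242). When single libraries were left out, it ran from -1.85 without WT saline 1 to -0.52 without WT saline 2. Col11a2 and Col27a1 were low in all groups, at 0.843 to 5.20 and 2.59 to 6.38 CPM.

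The type IV chains Col4a1 and Col4a2 and the type VI chains Col6a1 and Col6a2 stood lower in both WT isoproterenol libraries than in both WT saline libraries, without passing the test. Col4a1 stood at 820 and 1580 CPM after saline and 743 and 648 after isoproterenol, and Col4a2 at 630 and 1280, then at 510 and 483. Col6a1, a chain of the beaded filaments that link cells to the matrix, stood at 149 and 218, then at no more than 126 in either library, and Col6a2 at 185 and 294, then at 119 and 117. The treatment groups did not overlap for these 4 genes, and Col15a1, a multiplexin of the outer basement membrane, did the same at 142 and 258 against 98.0 and 109. With the offsets only Col6a2 (167 and 259 against 136 and 119) and Col15a1 (125 and 219 against 117 and 117) kept apart. Col4a1 then overlapped at 712 and 1330 against 901 and 693, Col4a2 at 518 and 1050 against 640 and 540, and Col6a1 at 129 and 182 against 153 and 143. Col4a2 had a log2 fold change of -0.94 ± 0.44 (edgeR adjusted p = 0.180), Col4a1 -0.79 ± 0.47 (adjusted p = 0.265) and Col6a2 -1.02 ± 0.60 (adjusted p = 0.254). Of the 35 members, 12 were lower without overlap and 5 were higher, or 34.3% and 14.3%, against 33.4% and 39.3% of all genes tested. With the offsets 7 were lower and 10 higher (20% and 28.6%, against 27% and 29.2% of all genes), and 6 and 3 of these were among the earlier ones. Above 0 lay 11 of 35 members (31.4%, against 52.3% of all genes). The median log2 fold change of the members was -0.19, against 0.06 over all genes, and with the offsets it was 0.01.

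In Set7KO the collagens gave a different set of values, and the library Set7KO saline 2 decided them. Col1a1 stood at 266 and 65.6 CPM in Set7KO saline and at 275 and 253 in Set7KO isoproterenol. Col3a1 stood at 408 and 101, then at 471 and 364, and Col4a1 at 1250 and 431, then at 1050 and 959. Set7KO saline 2 was the lowest of all 8 libraries for each of these genes, and its 44 collagens summed to 1390 CPM against 2550 to 5040 in the others. Its summed markers of resident fibroblasts (1800 CPM against 2880 to 5530, all 7 detected) and of endothelial cells (892 against 1090 to 1550, all 6 detected) were also lowest, while its cardiomyocyte markers, 78600 CPM, were within the range of the others. Most of the fibroblast sum was Gsn, which averaged 2930 CPM over the libraries. Between Set7KO and WT after saline the 7 fibroblast markers had a median log2 difference of -0.28, with Dcn at 0.87 ± 0.41. Other lists were not lowest in Set7KO saline 2. Its smooth muscle markers summed to 655 CPM (394 to 787 in the others) and its activated fibroblast markers to 163 (151 to 412). The sums for macrophages, lymphocytes, Schwann cells and epicardium were not lowest there either. Whether this library held fewer cells of any type was not tested. The erythroid markers of Set7KO saline 2 were the highest, at 10500 CPM against 1250 to 4350. Their part in the collagen values was not tested.

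With both Set7KO saline libraries, the log2 fold change after isoproterenol in Set7KO was 0.67 ± 0.54 for Col1a1, 0.81 ± 0.40 for Col1a2 and 0.72 ± 0.54 for Col3a1 (edgeR adjusted p = 0.704, 0.561 and 0.689). It was 0.26 ± 0.47 for Col4a1 and 0.18 ± 0.44 for Col4a2 (adjusted p = 0.871 and 0.907). Without overlap 4 members were higher and 3 lower (11.4% and 8.57%, against 16% and 18.7% of all genes), and 24 of 35 lay above 0 (68.6%, against 46.8%). The median over the members was 0.30, against -0.04 over all genes tested. Without Set7KO saline 1, which leaves Set7KO saline 2 alone in its group and assumes that it varies like the others, the median was 1.26 and 12 of 36 members were called higher (33.3%, against 2.66% of all genes), Col1a1, Col1a2 and Col3a1 among them. Without Set7KO saline 2 the median was -0.24 and 0 were called. With the offsets and without Set7KO saline 1, 0 members were called (0.00548% of all genes).

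Col18a1, the multiplexin from which endostatin is cut, was among the 5 members with the smallest p in this genotype. It stood at 31.1 and 9.57 CPM in Set7KO saline and at 43.5 and 44.3 in Set7KO isoproterenol. Both isoproterenol libraries were higher, and the 2 saline libraries were far apart. The log2 fold change was 1.12 ± 0.47 (edgeR adjusted p = 0.513). In WT, Col18a1 stood at 29.3 and 41.1, then at 27.5 and 31.3, and with the offsets at 24 and 34, then at 34.3 and 34.7. The interaction, the difference between the responses of the genotypes, was 1.38 ± 0.66 (adjusted p = 0.190), the smallest p of any member in that contrast.

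**Figure D3:**
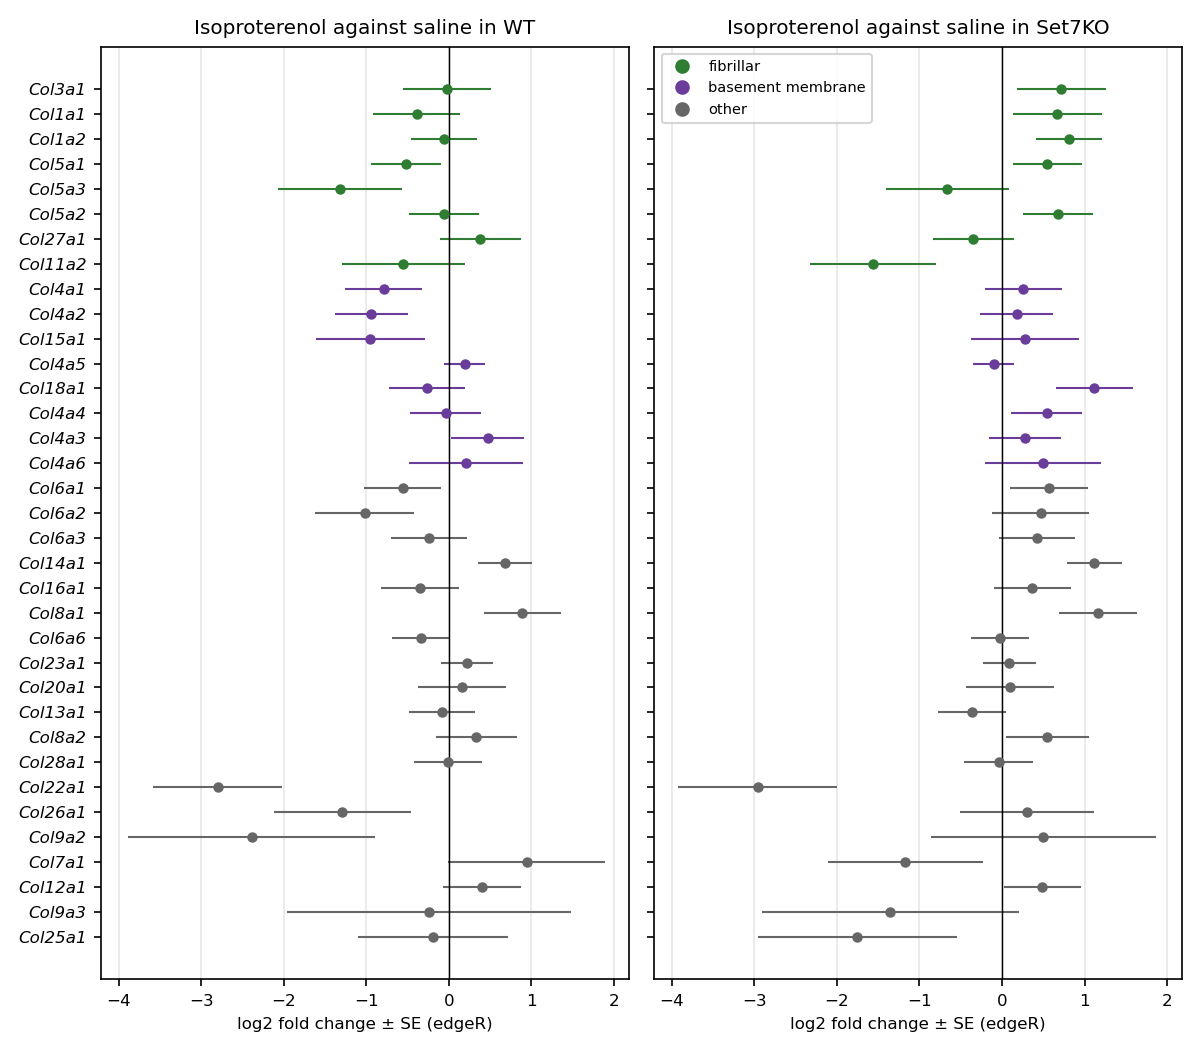
Log2 fold change after isoproterenol (points) with its standard error (lines) for the 35 tested collagen chain genes, in WT on the left and Set7KO on the right, coloured by class and ordered by level within a class. In WT 24 genes lie below 0 and in Set7KO 24 lie above 0, and none passed the adjusted threshold in either genotype.

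Only 3 members were separated by treatment in both genotypes, with all 4 isoproterenol libraries on the same side of all 4 saline libraries: Col14a1 and Col8a1 were higher (5.71% of members, against 2.11% of all genes tested) and Col22a1 was lower (2.86%, against 2.01%). Col14a1 encodes a fibril-associated chain that binds the surface of collagen fibrils. Its level was 17.9 and 18.4 CPM in WT saline, 32.6 and 25.6 in WT isoproterenol, 17.5 and 8.63 in Set7KO saline, and 29.0 and 27.4 in Set7KO isoproterenol. The lowest isoproterenol library thus lay above the highest saline library. Averaged over genotypes the log2 fold change was 0.90 ± 0.23, an increase of 86.5%, with an adjusted p of 0.261 (edgeR quasi-likelihood test). DESeq2 gave an adjusted p of 0.0364, leaving out Set7KO saline 1 gave 0.0480, and the adjusted p over the 19 alternatives ran from 0.0364 to 0.816.

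Col8a1 encodes a short chain of the type VIII network, which is found in vessel walls. It stood at 13.5 and 8.72 CPM in WT saline, 25.1 and 16.0 in WT isoproterenol, 11.9 and 4.78 in Set7KO saline, and 22.6 and 14.5 in Set7KO isoproterenol. The treatments were separated by a narrow gap, from 13.5 to 14.5, and with the offsets for GC and length they overlapped. The averaged log2 fold change was 1.02 ± 0.33 (edgeR adjusted p = 0.368). With the offsets the treatments were apart for 3 higher members, Col14a1, Col8a2 and Col18a1 (8.57%, against 3.26% of all genes), and 1 lower, Col22a1 (2.86%, against 2.78%).

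Col22a1, a fibril-associated chain of tissue junctions such as that of muscle and tendon, was near the limit of detection. Its counts were 63 and 97 in WT saline, 9 and 21 in WT isoproterenol, 30 and 34 in Set7KO saline, and 0 and 6 in Set7KO isoproterenol. In CPM these were 2.35 and 3.22, 0.204 and 0.606, 0.975 and 0.678, and 0 and 0.220. Each isoproterenol library was below each saline library, and each Set7KO group was below or overlapped the WT group of the same treatment. The averaged log2 fold change was -2.88 ± 0.62 (edgeR adjusted p = 0.190), and it moved from -5.34 without Set7KO isoproterenol 2 to -2.35 without Set7KO isoproterenol 1. It was called lower by DESeq2 (adjusted p = 0.00149) and without a filter on low counts (adjusted p = 0.0111).

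The other fibril-associated chains described here, Col12a1 and Col16a1, overlapped between treatments over the 8 libraries. Col12a1, a relative of Col14a1, stood at 0.598 to 1.54 CPM, with 0.933 and 0.829 in WT saline and 1.20 and 1.13 in WT isoproterenol, and its averaged log2 fold change was 0.45 ± 0.33 (edgeR adjusted p = 0.670). Col16a1 stood at 22.2 and 19.4 in WT saline, 15.2 and 17.5 in WT isoproterenol, 28.8 and 8.49 in Set7KO saline, and 22.1 and 26.2 in Set7KO isoproterenol. Col16a1 was lower without overlap after isoproterenol in WT, and its groups overlapped in Set7KO. With the offsets the direction in WT turned, with 18 and 16.1 in saline against 19.1 and 19.7 in isoproterenol. Col12a1, higher without overlap in WT, then overlapped there.

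**Figure D4:**
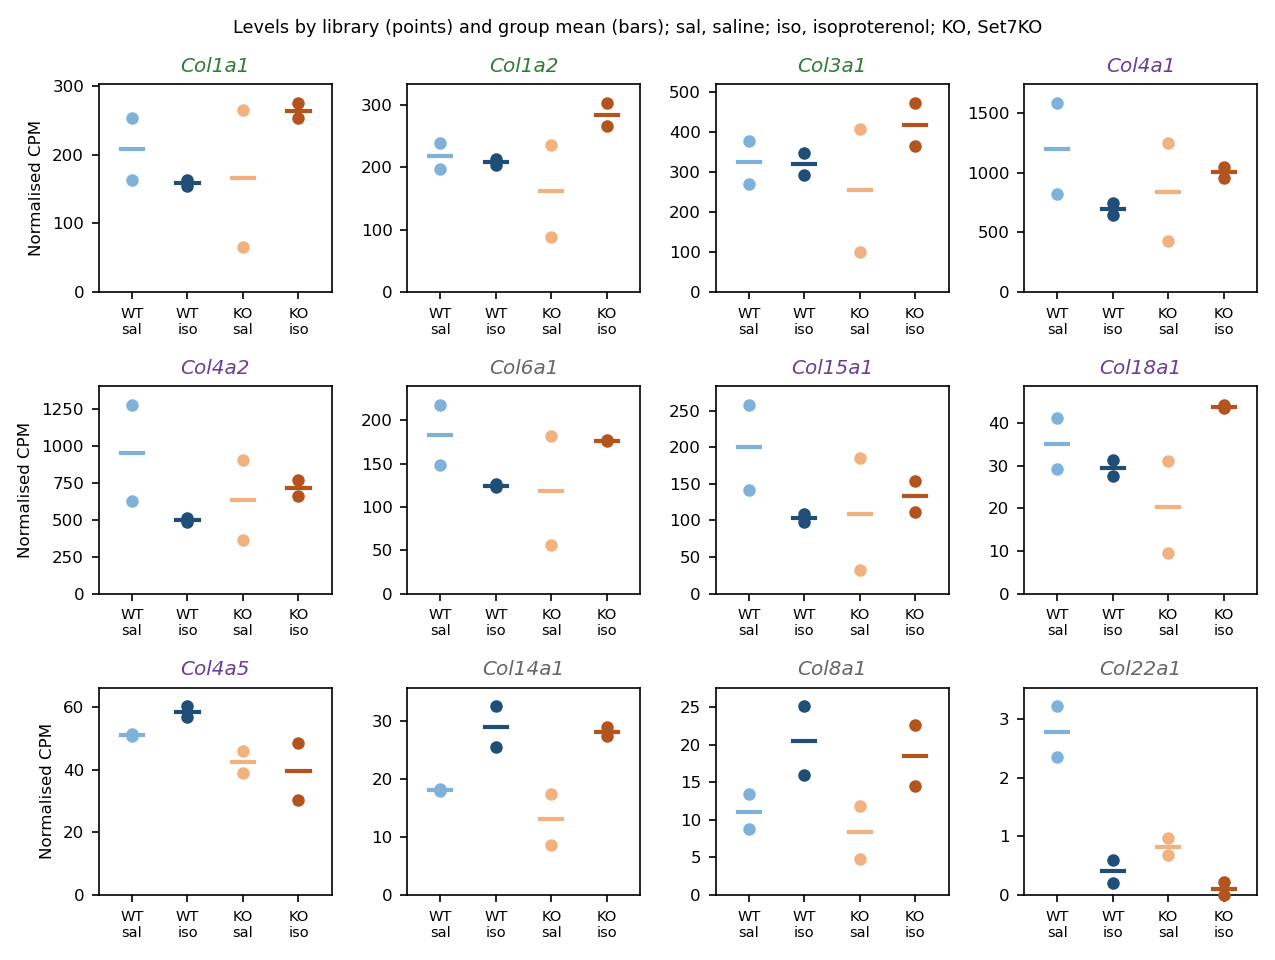
Normalised CPM of 12 collagen chain genes in each library (points) and the mean of each group (bars), with a separate vertical axis from 0 for each gene and names coloured by class (green fibrillar, purple basement membrane, grey other). Col14a1 is at 25.6 or more in all 4 isoproterenol libraries and at 18.4 or less in all 4 saline libraries, and the points of Set7KO saline lie far apart for Col1a1, Col3a1 and Col4a1.

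The ratio of fibrillar to type IV message separated the treatments in every library, although no single chain passed the test. The summed level of Col1a1, Col1a2 and Col3a1 per kilobase of exons was divided by that of Col4a1 and Col4a2. The ratio was 0.332 and 0.238 in WT saline, 0.432 and 0.443 in WT isoproterenol, 0.333 and 0.242 in Set7KO saline, and 0.443 and 0.425 in Set7KO isoproterenol. All 4 isoproterenol libraries (mean 0.436 ± 0.00885, SD) lay above all 4 saline libraries (0.286 ± 0.0534), in WT and in Set7KO alike. The library Set7KO saline 2, with the lowest total, had a ratio close to that of WT saline 2, with the highest. This ratio was formed after the levels were seen, so it is a description and carries no p.

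With the offsets for GC and length the ratio was 0.218 to 0.355 in saline and 0.391 to 0.461 in isoproterenol, and per kilobase of coding transcript it was 0.355 to 0.509 and 0.637 to 0.682. By single chains, Col3a1 over Col4a1 was 0.177 to 0.250 against 0.288 to 0.356, and Col1a2 over Col4a1 was 0.0903 to 0.144 against 0.166 to 0.189, both without overlap. Col1a1 over Col4a1 overlapped, at 0.173 to 0.242 against 0.237 to 0.300. The type VI chains Col6a1, Col6a2 and Col6a3 over the same type IV chains overlapped too, at 0.183 to 0.294 against 0.266 to 0.302. Summed markers of resident fibroblasts, mostly Gsn, over those of endothelial cells were 2.02 to 2.76 in saline and 2.59 to 3.79 in isoproterenol, also with overlap, and their part in the collagen ratio was not tested.

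**Figure D5:**
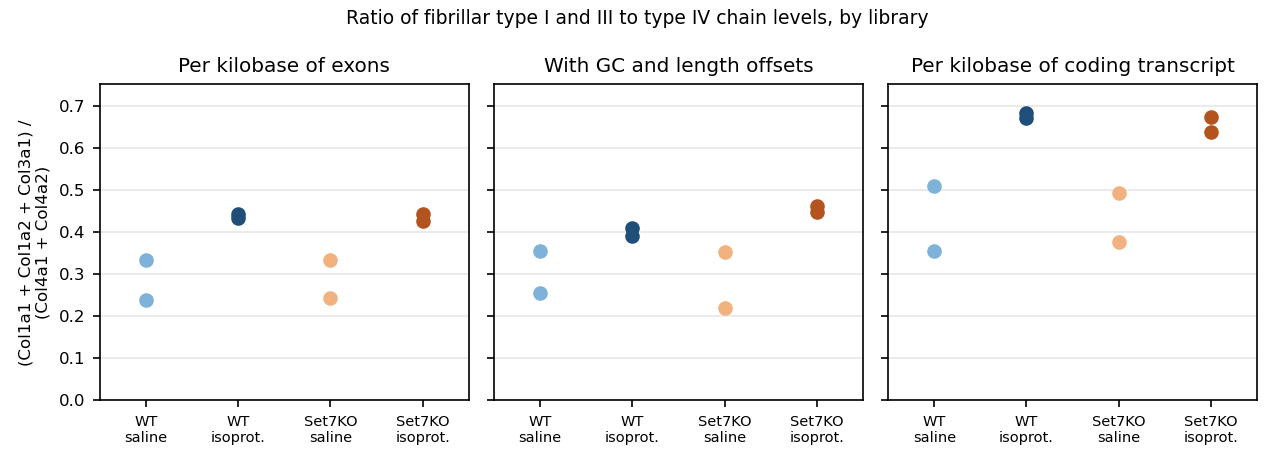
Ratio of the summed level of Col1a1, Col1a2 and Col3a1 to that of Col4a1 and Col4a2 in each of the 8 libraries (points), per kilobase of exons, with GC and length offsets, and per kilobase of coding transcript. In each panel all 4 isoproterenol libraries lie above all 4 saline libraries.

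Between genotypes after saline, the members were mostly lower in Set7KO, again through Set7KO saline 2. Of 35 members 30 had a fitted difference below 0, and 5 one above 0 (14.3%, against 51.4% of all genes), with a median of -0.42 against 0.02 over all genes tested. Without overlap, 3 were lower and 0 higher (8.57% and 0%, against 18.3% and 19.6% of all genes). Without Set7KO saline 2 the median was 0.12, and without Set7KO saline 1 it was -1.39 with 11 members called lower (30.6%, against 5.64% of all genes called). With the offsets the median was -0.24 with both libraries, and without Set7KO saline 1 then 0 members were called. Col14a1, lower without overlap after saline, overlapped with the offsets. Col1a1 differed by -0.33 ± 0.53 with both libraries, Col1a2 by -0.42 ± 0.40, Col3a1 by -0.35 ± 0.53, Col4a1 by -0.52 ± 0.47 and Col4a2 by -0.59 ± 0.44 (log2; edgeR adjusted p from 0.587 to 0.795).

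After isoproterenol the type I and III chains were higher in both Set7KO libraries than in both WT libraries, narrowly so for Col3a1 (364 against 348). The values are those given above: 275 and 253 against 155 and 163 CPM for Col1a1, 302 and 265 against 213 and 204 for Col1a2, and 471 and 364 against 348 and 291 for Col3a1. With the offsets these 3 genes kept apart, although the GC trend of the libraries also differed between the genotypes here. Type IV chains stood at 1050 and 959 against 743 and 648 for Col4a1 and 773 and 660 against 510 and 483 for Col4a2. This separation was lost with the offsets, at 1020 and 894 against 901 and 693 for Col4a1 and 740 and 593 against 640 and 540 for Col4a2. The log2 differences were 0.73 ± 0.54 for Col1a1, 0.44 ± 0.40 for Col1a2, 0.39 ± 0.53 for Col3a1, 0.53 ± 0.47 for Col4a1 and 0.53 ± 0.44 for Col4a2 (edgeR adjusted p from 0.414 to 0.663). Of the members, 14 were higher without overlap and 5 lower (40% and 14.3%, against 31.8% and 36.3% of all genes). With the offsets 13 were higher and 8 lower (37.1% and 22.9%, against 25.2% and 25.1%), and 10 and 4 of these were among the earlier ones. When only these 2 groups were fitted, Col1a1 and Col6a2 were called higher in Set7KO (6.25% of members, against 7.68% of all genes called).

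Averaged over treatments, Col4a5, the type IV chain whose mutation causes X-linked Alport syndrome, was the only member whose Set7KO and WT libraries did not overlap (2.86% of members, against 0.267% of all genes tested lower and 0.289% higher). It stood at 51.6 and 50.9 CPM in WT saline, 56.9 and 60.3 in WT isoproterenol, 38.9 and 45.9 in Set7KO saline, and 48.5 and 30.5 in Set7KO isoproterenol. All 4 WT libraries were above all 4 Set7KO libraries, the nearest being 50.9 and 48.5, or 48.5 and 48 with the offsets. The log2 difference was -0.42 ± 0.18, with an adjusted p of 1 (edgeR quasi-likelihood test). Col4a1, Col4a2, Col1a1, Col1a2 and Col3a1 differed by -0.03 to 0.20 in the same contrast.

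The difference between the genotypes in their response to isoproterenol did not pass the test for any member. The median interaction was 0.43 log2 units over the 35 members, 0.74 over the 8 fibrillar, 0.82 over the 8 basement membrane and 0.22 over the 19 other chains, against -0.05 over all genes tested. Col1a1 had an interaction of 1.06 ± 0.76, Col1a2 of 0.87 ± 0.56, Col3a1 of 0.74 ± 0.76, Col4a1 of 1.05 ± 0.67 and Col4a2 of 1.12 ± 0.62 (edgeR adjusted p from 0.243 to 0.512). The 95% interval for Col1a1 ran from -0.67 to 2.79. Without Set7KO saline 1, 17 members were called, all higher (47.2%, against 31.6% of all genes called), and 3 with the offsets as well (Col4a4, Col5a2 and Col6a2; 8.33%, against 1.04%). Without Set7KO saline 2, 0 were called and the median was -0.08.

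Genes that make, bind and remove collagen were counted from lists of 33, 10, 10 and 9 genes, and none passed the adjusted threshold in any contrast. Of the biosynthesis genes, 31 were tested, and after isoproterenol in WT 8 of them were lower and 3 were higher with an unadjusted p below 0.05 (13.3% and 18.5% of all genes). Fkbp10 and P3h4, which act with the enzymes that hydroxylate lysine in new collagen chains, stood lowest in p. Fkbp10 was at 60.2 and 58.2 CPM in WT saline, 23.2 and 21.9 in WT isoproterenol, 54.5 and 31.4 in Set7KO saline, and 40.8 and 46.1 in Set7KO isoproterenol. Its WT groups were far apart, with a log2 fold change of -1.39 ± 0.28 (edgeR adjusted p = 0.0941), and P3h4 had -0.93 ± 0.21 (adjusted p = 0.0941). The Set7KO groups of Fkbp10 overlapped. With the offsets the WT fold changes were -0.82 ± 0.16 for Fkbp10 and -0.28 ± 0.19 for P3h4 (edgeR adjusted p = 0.184 and 0.485).

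Among 9 collagen receptors tested, the unadjusted p was below 0.05 for 4 with a higher level in WT isoproterenol and for 0 with a lower one, against 18.5% and 13.3% of all genes. Itga1, the alpha chain of an integrin that binds type IV and type I collagen, stood at 14.0 and 14.4 CPM in WT saline, 37.1 and 38.6 in WT isoproterenol, 19.8 and 23.8 in Set7KO saline, and 21.1 and 16.4 in Set7KO isoproterenol. The WT isoproterenol libraries stood above all others. The log2 fold change was 1.41 ± 0.23 in WT (edgeR adjusted p = 0.0941), and the interaction was -1.63 ± 0.32 (adjusted p = 0.0876). Ddr2, a receptor kinase for fibrillar collagen, had 1.16 ± 0.25 in WT and an interaction of -1.47 ± 0.36 (adjusted p = 0.0941 and 0.0883). With the offsets these values were far smaller: Itga1 had 0.15 ± 0.25 in WT and an interaction of 0.16 ± 0.35, and Ddr2 had 0.30 ± 0.29 and -0.35 ± 0.42 (edgeR adjusted p from 0.633 to 0.872). The WT groups of Itga1 then overlapped, at 18.4 and 22.5 against 21.8 and 23.5 CPM.

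Of the 10 fibril partner genes, 4 were higher in WT isoproterenol with an unadjusted p below 0.05 and 0 were lower, and the counts were the same averaged over genotypes (all genes higher 18.5% and 4.5%). Lum encodes lumican, a small proteoglycan that spaces fibrils. It stood at 4.40 and 3.61 CPM in WT saline, 29.2 and 20.1 in WT isoproterenol, 5.66 and 9.91 in Set7KO saline, and 13.6 and 5.78 in Set7KO isoproterenol. Only the WT groups were apart, and the log2 fold change there was 2.62 ± 0.47 (edgeR adjusted p = 0.0941), with an interaction of -2.31 ± 0.63 (adjusted p = 0.0913). With the offsets these were 1.70 ± 0.35 and -0.95 ± 0.49 (edgeR adjusted p = 0.184 and 0.417). The Set7KO groups of Lum were then barely apart, at 6.34 and 6.98 CPM in saline against 15.4 and 6.99 in isoproterenol. The log2 fold change in Set7KO was 0.75 ± 0.34 (edgeR adjusted p = 0.573). Postn, periostin of activated fibroblasts, stood at 4.74 and 6.93, 35.5 and 17.3, 8.68 and 4.47, and 15.8 and 5.96 in the same order of groups, and its averaged log2 fold change was 1.46 ± 0.39 (edgeR adjusted p = 0.284). Its WT groups were apart, and with the offsets they overlapped. Among 7 degradation genes, Ctsk, the collagen-cleaving cathepsin K, had the smallest p averaged over genotypes, 0.70 ± 0.20 (adjusted p = 0.316).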

How the data were processed

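RNA was sequenced from hearts with a TruSeq stranded mRNA kit and single reads of 75 cycles on a NextSeq instrument, per the labels' protocols. The deposited values are the authors' raw counts for each gene in each library. HISAT2, HISAT, StringTie, edgeR and GRCm38 are named in the submitters' processing notes; their versions and roles, and whether counting used the strand, are not given in the sources used. Symbols, exons and coding sequence came from GENCODE M21 (GRCm38), where 55227 of 55487 identifiers had a name.

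The labels gave the groups. From the counts of all 8 libraries, edgeR 4.0.16 estimated a mean per group (R 4.3.3, TMM, filterByExpr, two-sided quasi-likelihood F-tests, Benjamini-Hochberg over 17636 genes, threshold 0.05) in 7 contrasts. Residual degrees of freedom were 4, prior ones 4.36, and the biological coefficient of variation was 28.4%. Standard errors come from the F statistic and fold changes from the fit. Levels are TMM-normalised CPM, divided by the union of a gene's exons where genes are compared. The floor was 3 counts. The fit was tested on simulated counts.

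The members, their classes and the lists were chosen with earlier results of these data known. Values in each library were given for the 12 members highest per kilobase and 11 others chosen by type, fold changes for called members, the 5 with the smallest p in a contrast, and Col1a1, Col1a2, Col3a1, Col4a1 and Col4a2. From each further list 2 genes per contrast could be named, those with the lowest p among genes averaging 1 CPM or more. Alternatives were other normalizations and filters, DESeq2 1.42.0, limma-voom (limma 3.58.1), robust estimation, fits of 2 groups, offsets for GC content and exonic length, and leaving out each library. DESeq2 with the offsets, the length of the coding transcript, and the collagen ratio were added after the data were seen. Figures were drawn with matplotlib 3.10.9. Marker lists for smooth muscle, macrophages, lymphocytes, Schwann cells and epicardium were also summed, and held 394 to 787, 111 to 264, 0.808 to 8.65, 4.13 to 11.0 and 2.61 to 5.19 CPM; activated fibroblast markers held 151 to 412.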

Additional observations from a re-analysis of the deposited data

How the results depend on the processing

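No paired analysis was possible because the labels give no shared replicate numbers. The sample titles carry a letter that the labels do not explain. It is C for WT saline and Set7KO saline 2, B for Set7KO saline 1, A for Set7KO isoproterenol and D for WT isoproterenol. No letter is shared between saline and isoproterenol libraries, or between the genotypes after isoproterenol. In those contrasts the letter and the group cannot be told apart, and the part of the letter was not tested. Over the 67 fold changes named for single chains, 1197 of 1305 values under the alternatives kept their direction and their side of the threshold, 37 newly passed it and 71, from 25 fold changes that were not called, turned in sign. In WT after isoproterenol, 1 member was called without a filter on low counts, 1 with DESeq2, 1 with DESeq2 and the offsets (Col22a1 each time, 2.5%, 2.86% and 2.86% of members against 5.2%, 15.4% and 3.44% of all genes), and 4 when only these 2 groups were fitted (Col14a1, Col22a1, Col26a1 and Col6a2, 11.8% of members against 29.7% of all genes). Averaged over genotypes the counts were 1 (no filter), 2 (DESeq2) and 1 (DESeq2 with the offsets), against 0.547%, 1.42% and 2.15% of all genes, and for Set7KO against WT after isoproterenol 2 in the fit of 2 groups (7.68% of all genes). Log2 values that turned in sign were, in WT, Col3a1 at 0.02 with upper quartile scaling and with no filter, and Col1a1, Col1a2 and Col3a1 at 0.10, 0.15 and 0.04 with the offsets in edgeR and in DESeq2. Averaged over treatments, Col4a2 was 0.02 with upper quartile scaling, and Col1a2, Col3a1 and Col4a1 were -0.08, -0.14 and -0.05 with limma-voom. The cause was not tested.

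Leaving out single libraries, with and without the offsets, gave these log2 ranges. For isoproterenol in WT, Col1a1 ran from -0.68 to 0.10, Col1a2 from -0.20 to 0.15 and Col3a1 from -0.25 to 0.21. For isoproterenol in Set7KO there were 0 to 12 calls, with medians of -0.25 to 1.26 (all members), -0.26 to 1.37 (basement membrane), -0.01 to 1.55 (fibrillar) and -0.28 to 1.03 (other); Col1a1 ran from -0.01 to 2.01, Col4a1 from -0.31 to 1.22 and Col4a2 from -0.33 to 0.97. Averaged over genotypes the medians were -0.20 to 0.53 (all) and -0.25 to 0.50 (other). In that contrast Col1a1 ran from -0.20 to 0.81, Col4a1 from -0.55 to 0.22 and Col4a2 from -0.64 to 0.02. For Set7KO against WT after saline there were 0 to 11 calls, with medians of -1.39 to 0.21 (all), -1.51 to 0.10 (basement membrane), -1.43 to 0.47 (fibrillar) and -1.14 to 0.17 (other). In that contrast Col14a1 ran from -1.14 to 0.03, Col1a1 from -1.67 to 0.48, Col1a2 from -1.31 to 0.24, Col3a1 from -1.69 to 0.46, Col4a1 from -1.48 to 0.18, Col4a2 from -1.38 to 0.08, Col6a1 from -1.73 to 0.08 and Col6a3 from -1.43 to 0.01. Averaged over treatments the medians were -0.56 to 0.22 (all) and -0.59 to 0.14 (other), and Col14a1 ran from -0.56 to 0.09, Col1a1 from -0.47 to 0.58, Col1a2 from -0.43 to 0.32, Col3a1 from -0.65 to 0.44, Col4a1 from -0.47 to 0.33 and Col4a2 from -0.43 to 0.29. For the interaction there were 0 to 17 calls, with medians of -0.10 to 1.28 (all), 0.08 to 1.78 (basement membrane), -0.05 to 1.89 (fibrillar) and -0.34 to 0.88 (other); Col1a1 ran from -0.07 to 2.40 and Col3a1 from -0.03 to 2.08. Col3a1 for isoproterenol in WT (0.21) and Col4a2 averaged over treatments (0.29) reached their highest values without WT saline 2.

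The difference in the ratio of fibrillar to type IV chains was 0.150, and 0.132 with the offsets, 0.233 by coding transcript, and 0.134 to 0.165 without single libraries. With 2 libraries a group, differences as small as those of Col1a1 lie within the error, and the chains under about 1 CPM are limited by depth.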

Other observations

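Col4a4, a type IV chain of specialised basement membranes, stood at 11.1 to 11.8 CPM in 7 libraries and at 3.99 in Set7KO saline 2. With the offsets its WT groups were apart, at 11.4 and 11.6 in saline against 10.6 and 10.1 in isoproterenol. The transmembrane chains Col13a1 and Col23a1 stood at 1.05 to 2.38 and 2.25 to 3.46 CPM, and Set7KO saline 2 was not the lowest library for Col13a1. Col23a1 was apart in WT with the offsets, at 2.24 and 2.64 in saline against 3.51 and 3.7 in isoproterenol. Col9a2, Col9a3 and Col25a1 passed the filter on 74, 70 and 56 counts in all 8 libraries together, so their fold changes rest on few reads. Counts of 0 occurred in libraries of different groups for Col9a2 and Col9a3, and only in Set7KO isoproterenol 2 for Col25a1.

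In Set7KO after isoproterenol, Loxl4, a cross-linking enzyme of the lysyl oxidase family, had the smallest p of the biosynthesis list, with a log2 fold change of 1.70 ± 0.36 (edgeR adjusted p = 0.369). Ddr1, a collagen receptor kinase, had 0.91 ± 0.25 (adjusted p = 0.465).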
